A study of Rattus norvegicus with 12 samples.

Results

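Genes of the mitochondrial respiratory chain and of ATP synthase were examined in the uterus of ovariectomized rats given estradiol, an aryl hydrocarbon receptor (AhR) ligand, or both. The genes were taken by name: every gene measured by a probe set with 1 gene symbol whose symbol starts with Nduf, Uqcr, Cox4 to Cox8 or Atp5, or is Sdha, Sdhb, Sdhc or Sdhd. This gave 80 of the 14506 genes measured. They comprise 33 genes named for complex I, 3 complex I assembly factors (Ndufaf1, Ndufaf3, Ndufaf4), 4 of complex II, 7 of complex III, 15 of complex IV, 15 of complex V (ATP synthase), the ATP synthase inhibitor Atp5if1, and 2 entries that RefSeq classes as pseudogenes (Cox6c-ps1 and Ndufs6-ps1). All 80 matched a RefSeq gene by gene ID. A total of 79 entered the tests over 10154 genes. The exception was Cox8c, a testis form of complex IV subunit 8, whose mean log2 level was 5.56 in vehicle rats, 5.48 in the E2 group, 5.80 in the 3-MC group and 5.78 in rats given both, under the limit of 6.44 that left out dim genes.

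The animals were young adult female Lewis rats without ovaries, in all groups including the controls, so the vehicle group had no ovarian estrogen. Each of the 4 groups held 3 rats: vehicle (DMSO), a daily 4 µg/kg of 17β-estradiol (E2), a daily 15 mg/kg of the AhR ligand 3-methylcholanthrene (3-MC), and both at these doses (E2+3-MC). Treatment ran over 3 days, the uterus was taken 24 h after the last dose, and the RNA of each rat was hybridised to 1 Affymetrix array. With 3 arrays per group and a spread shared by all groups, group differences of the 79 genes tested had a median standard error (SE) of 0.25 in log2 units on the deposited scale. After quantile normalization, described below, it was 0.13.

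The respiratory chain passes electrons from NADH, through complex I, and from succinate, through complex II, to complex III, cytochrome c and complex IV, which reduces oxygen. Complexes I, III and IV pump protons across the inner mitochondrial membrane, and complex V uses the proton gradient to make ATP. The genes listed here are nuclear. Estradiol is known to drive growth of the uterus, and the transcription factors NRF1, those of the ETS family and the estrogen-related receptors are known regulators of respiratory chain genes.

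The promoters of the genes on which the results below turn are shown, so that those of genes called higher and of genes called lower can be set side by side. RefSeq promoter sequence (build GRCr8) was found for 70 of the 80 genes. No entry was used for Cox4i2, Cox6c-ps1, Ndufb9, Ndufs6-ps1, Uqcrb, Atp5pd, Cox6a1, Ndufa8, Uqcr11 and Cox6c. The 200 bases before the start listed there were searched on both strands for 5 motifs, and matches are in capitals. The windows are chrX:121293556-121293755 on the minus strand for Ndufa1, chr10:81523346-81523545 on the minus strand for Atp5mc1, chr5:141264403-141264602 on the minus strand for Ndufs5, and chr10:38089979-38090178 on the minus strand for Uqcrq. They are chrX:75148836-75149035 on the plus strand for Cox7b, chr10:14255967-14256166 on the minus strand for Ndufb10, and chr8:118141724-118141923 on the minus strand for Ndufaf3. The windows of Atp5mc1, Ndufs5 and Uqcrq lie wholly or partly inside the RefSeq interval of the gene.
Ndufa1: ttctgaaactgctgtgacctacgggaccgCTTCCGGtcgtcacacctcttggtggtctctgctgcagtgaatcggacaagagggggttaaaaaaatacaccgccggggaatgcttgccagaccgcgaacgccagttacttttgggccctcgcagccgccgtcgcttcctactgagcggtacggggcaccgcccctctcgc
Atp5mc1: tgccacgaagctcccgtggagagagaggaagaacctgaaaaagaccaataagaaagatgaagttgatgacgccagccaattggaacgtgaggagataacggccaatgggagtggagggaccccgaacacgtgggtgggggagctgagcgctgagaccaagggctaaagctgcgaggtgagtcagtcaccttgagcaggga
Ndufs5: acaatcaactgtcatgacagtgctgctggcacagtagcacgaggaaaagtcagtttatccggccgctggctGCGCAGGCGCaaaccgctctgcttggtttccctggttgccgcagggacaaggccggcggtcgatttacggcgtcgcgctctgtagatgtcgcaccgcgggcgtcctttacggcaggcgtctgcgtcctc
Uqcrq: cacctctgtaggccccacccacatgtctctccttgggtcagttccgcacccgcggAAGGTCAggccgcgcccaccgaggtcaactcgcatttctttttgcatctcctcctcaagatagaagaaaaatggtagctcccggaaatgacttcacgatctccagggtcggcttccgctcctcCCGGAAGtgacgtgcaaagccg
Cox7b: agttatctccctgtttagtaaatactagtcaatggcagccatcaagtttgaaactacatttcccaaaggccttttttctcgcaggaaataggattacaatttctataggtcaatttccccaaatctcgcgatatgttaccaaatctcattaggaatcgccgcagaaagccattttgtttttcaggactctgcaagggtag
Ndufb10: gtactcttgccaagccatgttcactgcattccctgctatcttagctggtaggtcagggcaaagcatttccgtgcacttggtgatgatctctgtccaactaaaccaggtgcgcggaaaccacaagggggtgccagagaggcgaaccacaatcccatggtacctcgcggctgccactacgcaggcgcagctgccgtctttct
Ndufaf3: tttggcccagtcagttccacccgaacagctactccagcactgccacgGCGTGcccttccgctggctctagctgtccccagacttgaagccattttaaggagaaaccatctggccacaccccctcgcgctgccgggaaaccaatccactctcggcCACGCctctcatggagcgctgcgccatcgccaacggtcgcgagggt

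The capitals mark an ETS motif (CCGGAAG) at bases 171 to 165 before the start in Ndufa1 and at bases 22 to 16 in Uqcrq, an estrogen-related receptor (ERR) motif (AAGGTCA) at bases 145 to 139 in Uqcrq, an NRF1 motif (GCGCA, any base, then GCGC) at bases 129 to 120 in Ndufs5, and 2 matches of the core of the AhR motif (GCGTG) in Ndufaf3. The windows of Atp5mc1, Cox7b and Ndufb10 hold none of the 5 motifs in these letters. Over the 70 genes with a promoter, the ETS motif was found in 27.1%, against 6.69% of 33469 promoters of the same length, and the NRF1 motif in 15.7% against 3.44%. The ERR motif was found in 8.57% against 3.09%, and the AhR core in 37.1% against 22.7%. The full palindromic estrogen response element (GGTCA, any 3 bases, then TGACC, whose first bases overlap the end of the ERR motif) was found in 0 of the 70 and in 0.0209% of all promoters. The 33469 are all promoters listed, not matched to the 70 genes in expression level or base composition. The cause of the higher shares was not tested. A match describes the letters of the window and is no evidence of binding.

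The arrays differed in scale, and this bears on every result below. Array medians ran from 6.68 to 7.12 on the log2(intensity + 16) scale. Vehicle rat 1 had the widest array, with an interquartile range of 2.70 against 1.87 to 2.35 on the others. Respiratory chain genes are bright: the mean level of 65 of the 79 tested lay above the upper quartile of all genes. On the deposited scale the median of the 80 genes was 10.34 in vehicle rat 1 and 9.32 and 9.47 in the other vehicle rats. It was 9.98, 9.68 and 9.86 with E2, 9.40, 9.35 and 9.65 with 3-MC, and 9.91, 9.68 and 9.995 with E2+3-MC. Thus the E2 rats lay above 2 of the vehicle rats and below the first. After quantile normalization, which gives all arrays 1 distribution, these medians lay between 9.53 and 9.81 on all 12 arrays and the groups overlapped. The median spread of these genes between the vehicle rats fell from an SD of 0.555 to 0.20. Values are therefore given on the deposited scale and after quantile normalization.

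**Figure D1:**
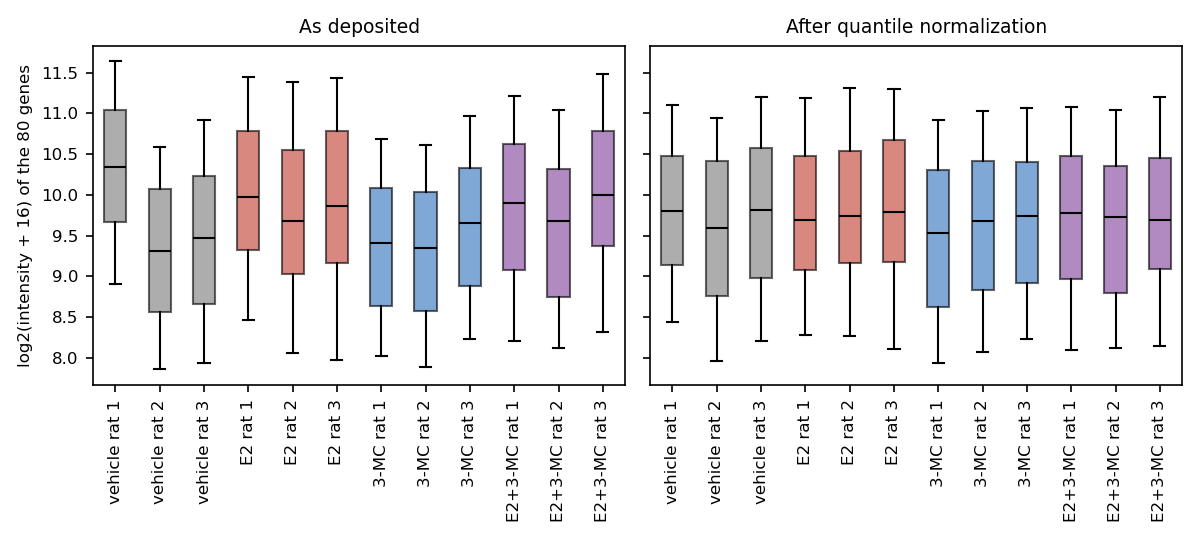
Levels of the 80 respiratory chain and ATP synthase genes on each of the 12 arrays, as log2(intensity + 16), on the deposited scale (left) and after quantile normalization (right). Boxes span the quartiles with the median as a line, and whiskers reach the 10th and 90th percentiles of the genes; vehicle rat 1 stands highest at a median of 10.34 on the left and is level with the other arrays on the right.

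E2 was set against vehicle to see how the chain responds to estradiol in a uterus without ovarian hormone. On the deposited scale 2 of the 79 genes rose and none fell at an adjusted p under 0.05 in limma (Benjamini-Hochberg over all 10154 genes tested, two-sided; "called" below). Of all genes 18.1% were called, 8.7% higher and 9.44% lower. The genes that rose are Ndufa1, an X-linked accessory subunit needed to assemble complex I, and Atp5mc1, 1 of several genes for the c subunit of the ATP synthase rotor. In all, 62 of the 79 differences were above 0, with a median of 0.23, while the median of all genes was -0.11. This median was 0.51 without vehicle rat 1, where that of all genes was 0.07, but 0.03 without vehicle rat 2 and 0.08 without vehicle rat 3, where those of all genes were -0.15 and -0.22. At an unadjusted p under 0.05 the counts were 11 of the 79 genes and 32.1% of all genes. The 3 E2 rats were all above the 3 vehicle rats for 8 of the 79 genes, against 10.1% of all genes, and all below for 2, against 17.1%; both directions together came to 27.2% of all genes.

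Ndufa1 (chrX:121289904-121293555, GRCr8) had intensities of 2715, 1721 and 2077 in vehicle rats 1 to 3 and of 3732, 3655 and 3479 with E2. With 3-MC it had 1653, 1788 and 2335, and with E2+3-MC 3079, 2519 and 4115. The E2 rats were all above the vehicle rats, while E2+3-MC rat 2 lay below vehicle rat 1. Its log2 difference between E2 and vehicle was 0.76 ± 0.22 (SE, n = 3 per group, limma adjusted p = 0.0254) on the deposited scale and 0.62 ± 0.14 (adjusted p = 0.00419) after quantile normalization. On the deposited scale the call was lost without vehicle rat 2 (0.61, adjusted p = 0.11) and without E2 rat 1, 2 or 3 (0.74, 0.75 and 0.79, adjusted p = 0.0597, 0.0764 and 0.0719). After quantile normalization it held with any 1 of the 6 rats left out.

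Atp5mc1 (chr10:81520762-81523735) had intensities of 634, 565 and 471 with vehicle, 898, 792 and 891 with E2, 583, 519 and 555 with 3-MC, and 881, 741 and 901 with both. Both groups given E2 lay above both groups without it. The E2 minus vehicle difference was 0.62 ± 0.18 (limma adjusted p = 0.0236) on the deposited scale and 0.50 ± 0.14 (adjusted p = 0.0123) after quantile normalization. The deposited call was lost without vehicle rat 2 (0.64, adjusted p = 0.0556), vehicle rat 3 (0.51, adjusted p = 0.0757) or E2 rat 3 (0.60, adjusted p = 0.0921). The call after quantile normalization was lost without E2 rat 3 (0.45, adjusted p = 0.0503). The other genes of the same c subunit differed by 0.35 ± 0.20 (Atp5mc2, adjusted p = 0.252) and -0.03 ± 0.21 (Atp5mc3, adjusted p = 0.931) on the deposited scale. Their second probe sets gave higher values on that scale, 0.51 for Atp5mc2 and 0.20 for Atp5mc3.

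With quantile normalization the E2 minus vehicle calls among the 79 genes numbered 12, of which 8 were higher and 4 lower, where 38.4% of all genes were called (19% higher and 19.4% lower). The genes that rose were Ndufa1, Ndufs5, Ndufaf1, Uqcrq, Uqcr11, Cox5a, Cox7c and Atp5mc1. The genes that fell were Ndufb10, Ndufb4, Ndufaf3 and Cox4i2. Both calls of the deposited scale are among them. The median difference of the 79 genes was then 0.10, against -0.03 for all genes. Relative to all genes, the median shift was thus 0.34 on the deposited scale and 0.14 after quantile normalization. The 2539 genes above the upper quartile of mean level, which include 65 of the 79, had medians of 0.07 and -0.01 on the respective scales. The deposited shift is thus smaller relative to genes of like brightness.

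Ndufs5, an accessory subunit of complex I, had intensities of 655, 347 and 370 with vehicle and of 763, 677 and 710 with E2. The groups did not overlap, although vehicle rat 1 came close to the lowest E2 rat. Its difference was 0.69 ± 0.24 (limma adjusted p = 0.0544) on the deposited scale and 0.61 ± 0.12 (adjusted p = 0.00139) after quantile normalization. The call after quantile normalization held with any 1 of the 6 rats left out. A second probe set of Ndufs5 gave 0.61 on the deposited scale.

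Uqcrq, a small subunit of complex III, had 1421, 623 and 668 with vehicle and 1390, 1261 and 1370 with E2. Vehicle rat 1 was above all E2 rats on the deposited scale, whereas after quantile normalization its log2 level of 9.94 lay below those of the E2 rats, 10.16 to 10.33. The difference was 0.66 ± 0.28 (limma adjusted p = 0.11) and 0.50 ± 0.14 (adjusted p = 0.0124) on the respective scales, and the call was lost without vehicle rat 2 (0.42, adjusted p = 0.0515). Cox5a, a complex IV subunit, had 2564, 1224 and 1352 with vehicle, 2784, 2368 and 2661 with E2, and its difference after quantile normalization was 0.47 ± 0.12 (adjusted p = 0.00697). The Cox5a call held with any 1 of the 6 rats left out. That of the assembly factor Ndufaf1 was lost without any 1 of them but vehicle rat 1, at adjusted p-values of 0.0743 to 0.188.

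Among the genes that fell after quantile normalization, Ndufb10, an accessory subunit in the membrane arm of complex I, had intensities of 1861, 621 and 722 with vehicle and 714, 625 and 622 with E2. Vehicle rat 1 was far above the other rats, and vehicle rat 2 lay just below the lowest E2 rat. Its difference was -0.52 ± 0.30 (limma adjusted p = 0.243) on the deposited scale and -0.60 ± 0.16 (adjusted p = 0.00804) after quantile normalization, where the groups no longer overlapped. Ndufaf3, an assembly factor of complex I, had 358, 211 and 211 with vehicle and 194, 138 and 158 with E2, without overlap on either scale. The difference was -0.59 ± 0.21 (adjusted p = 0.0626) and -0.47 ± 0.10 (adjusted p = 0.00248) on the respective scales. Both calls after quantile normalization held with any 1 of the 6 rats left out. Ndufb4, also of the membrane arm, fell by 0.36 ± 0.11 after quantile normalization (adjusted p = 0.0234), a call lost without vehicle rat 3 (-0.29, adjusted p = 0.0828), E2 rat 1 (-0.27, adjusted p = 0.105) or E2 rat 3 (-0.38, adjusted p = 0.0507).

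**Figure D2:**
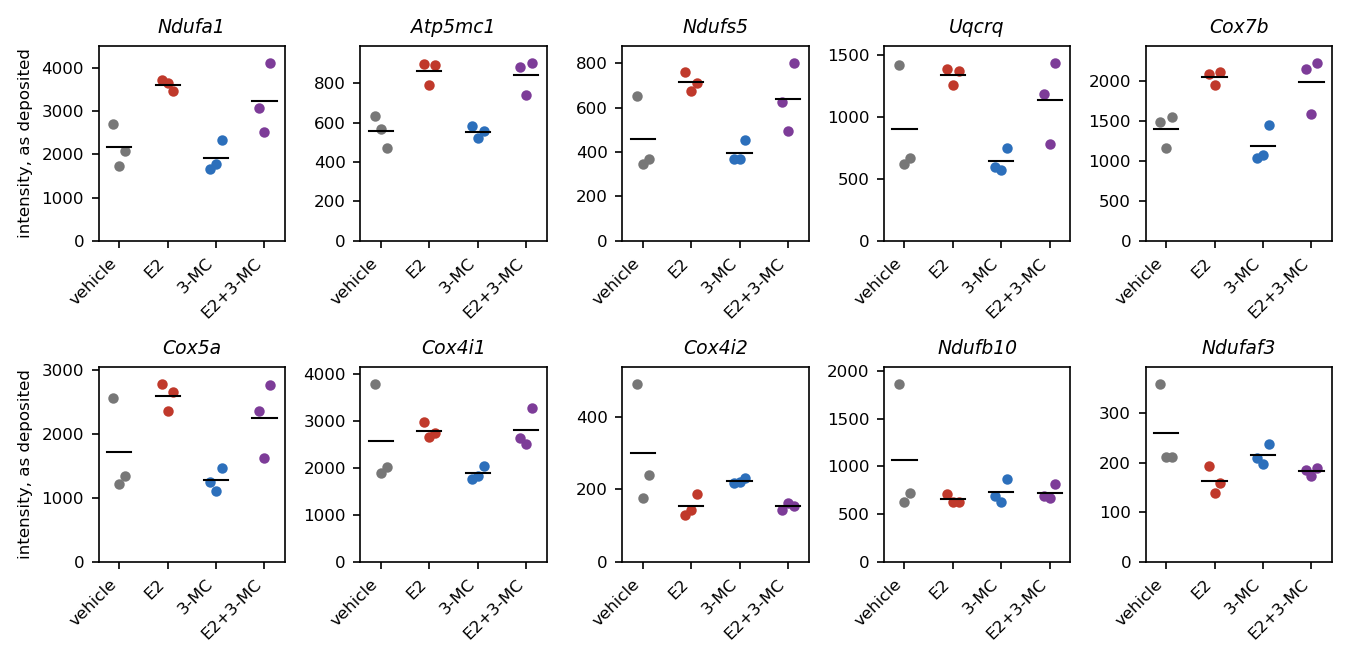
Deposited intensity of 10 genes in each rat; each point is 1 rat, from rat 1 at the left to rat 3 at the right of a group, and the line is the group mean, on axes that start at 0. Atp5mc1 is higher in both groups given E2, at 741 to 901, than in the other groups, at 471 to 634, and vehicle rat 1 is the highest vehicle rat in all 10 panels but Cox7b.

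The number of calls between E2 and vehicle depended on vehicle rat 1. Without it, 45 of the 79 genes were called on the deposited scale, 44 higher and 1 lower (Cox8b), where 34.8% of all genes were called, 23.8% higher and 11.1% lower. The genes that rose then were 15 of 33 for complex I, 3 of 4 for complex II, 6 of 7 for complex III, 8 of 14 for complex IV, 10 of 15 for complex V, 1 of 3 assembly factors and Atp5if1. Median differences by complex lay between 0.45 for complex I and 0.61 for complex III. After quantile normalization without this rat, 18 of the 79 genes were called, 13 higher and 5 lower, where 46.1% of all genes were called. The deposited count was 3 without vehicle rat 3, 1 without vehicle rat 2 or E2 rat 2, and 0 without E2 rat 3. The calls over all genes were then 1965, 1439, 1150 and 984, against 1842 with all rats. The count after quantile normalization was 7 without E2 rat 3, with 2996 calls over all genes against 3900 with all rats. Among the vehicle rats, cell type markers were also highest in rat 1, except those of blood. The summed intensity of 11 adipocyte markers was 23642 there and 3631 and 5366 in the other vehicle rats, and that of 13 macrophage markers was 7802 against 2458 and 2603. The part of these cells in the result was not tested. In bulk tissue, fewer cells of a type and less RNA per cell cannot be told apart.

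The core subunits chosen for complexes I, II, III and V were not called between E2 and vehicle on either scale with all rats. Of the nuclear subunits chosen for complex IV, which are not its catalytic core, Cox4i1 was not called. Cox5a was called after quantile normalization (0.47 ± 0.12, limma adjusted p = 0.00697). In complex I, Ndufs1 and Ndufv1, which carry electrons from NADH, differed by 0.25 ± 0.22 and 0.08 ± 0.26 on the deposited scale, and Ndufs7, which passes them to ubiquinone, by -0.36 ± 0.25. In complex II, Sdha, the flavoprotein that oxidises succinate, differed by -0.07 ± 0.27, and its iron-sulfur partner Sdhb by 0.15 ± 0.29. In complex III, the core protein Uqcrc1 differed by 0.01 ± 0.30 and the Rieske iron-sulfur protein Uqcrfs1 by 0.40 ± 0.29. In complex V, the catalytic head subunits Atp5f1a and Atp5f1b differed by 0.46 ± 0.27 and 0.11 ± 0.23. The lowest limma adjusted p of these 9 genes of complexes I, II, III and V on the deposited scale was 0.266, for Atp5f1a. After quantile normalization the closest to the threshold were Ndufs1 (0.25 ± 0.10, adjusted p = 0.0552) and Ndufs7 (-0.34 ± 0.14, adjusted p = 0.0672).

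Complex IV has alternative isoforms of several subunits, which are given side by side. Cox4i1, the widespread form of subunit 4, had intensities of 3773, 1895 and 2004 with vehicle and 2969, 2657 and 2727 with E2. Its difference was 0.19 ± 0.23 (limma adjusted p = 0.599) on the deposited scale and 0.01 ± 0.09 after quantile normalization. Cox4i2, the form known from lung, had 491, 175 and 240 with vehicle, 130 to 189 with E2, 217 to 232 with 3-MC, and 142 to 164 with E2+3-MC. Its values with E2+3-MC lay below those of all vehicle and 3-MC rats, while E2 rat 3 overlapped with vehicle rat 2. The E2 minus vehicle difference of Cox4i2 was -0.79 ± 0.27 (adjusted p = 0.0505) on the deposited scale and -0.63 ± 0.21 (adjusted p = 0.0295) after quantile normalization. Without vehicle rat 1 it was -0.39 (adjusted p = 0.095) and -0.44 (adjusted p = 0.095) on the respective scales. After quantile normalization the call was also lost without vehicle rat 3 (-0.57, adjusted p = 0.0902), E2 rat 1 (-0.45, adjusted p = 0.13) or E2 rat 2 (-0.65, adjusted p = 0.0622).

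Cox8b, the form of subunit 8 known from heart and skeletal muscle, had 99.5, 101 and 110 with vehicle and 73.2, 74.1 and 66.8 with E2. The groups did not overlap, and the difference of -0.45 ± 0.18 was not called (limma adjusted p = 0.0937). The widespread form Cox8a differed by 0.24 ± 0.24 (adjusted p = 0.531). Cox6a2, another muscle form, differed by 0.00 ± 0.20 and the widespread Cox6a1 by 0.51 ± 0.26. Cox6b2, known from testis, differed by -0.27 ± 0.26. Cox7a2 and Cox7a2l, the second of which is known to join complexes III and IV into supercomplexes, differed by 0.45 ± 0.25 and -0.05 ± 0.29. Ndufa4, named for complex I and since placed in complex IV, differed by 0.31 ± 0.23, and Atp5if1, which blocks ATP hydrolysis by complex V, by 0.41 ± 0.23. As a check of tissue, all 6 measured uterine markers, among them Hoxa11 and Esr1, and all 10 smooth muscle markers were above the dim limit. Of 14 markers of skeletal and heart muscle, 6 were below it (Actn3, Mb, Myh1, Myh2, Myh4 and Myh7) and 8 above. The summed intensity of the 14 was 2630 to 4114 with vehicle and 4185 to 4465 with E2. Of the 8, Acta1 had 347 to 760 with vehicle and 2280 to 2460 with E2, while Tnni2 had 303 to 751 and 155 to 254. Signal from striated muscle is thus not shown to be absent.

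3-MC was set against vehicle to see the AhR ligand alone. None of the 79 genes was called by limma on the deposited scale or after quantile normalization, where 0% of all genes were called. At an unadjusted p under 0.05 the counts were 0 of the 79 genes on the deposited scale, against 0.808% of all genes, and 6 (7.59%) after quantile normalization, against 4.71%. With limma's trend and robust options the count of calls was also 0. On the deposited scale 72 of the 79 differences were below 0. The median of the 79 was -0.25, against -0.05 for all genes and -0.15 for genes above the upper quartile of level. After quantile normalization the median was -0.09 and that of all genes -0.02. Without vehicle rat 1 the deposited median was 0.05, where that of all genes was 0.15. The sign of the deposited median thus rests on that rat, while it lay below that of all genes with and without the rat. The lowest values by difference were those of Ndufa11 and Atp5f1e (-0.55 ± 0.29 for each), subunits of complex I and of the complex V head. The highest were Cox6c-ps1 (0.28 ± 0.21) and Ndufaf4 (0.22 ± 0.19), an assembly factor.

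Between E2+3-MC and vehicle 0 of the 79 genes were called by limma on the deposited scale, where 7.84% of all genes were called, and 10 of the 79 (12.7%) had an unadjusted p under 0.05, against 18.7% of all genes. After quantile normalization 10 were called, 5 higher (Atp5mc1, Cox7c, Ndufa1, Ndufs5 and Uqcrc2) and 5 lower (Cox4i2, Cox8b, Ndufaf3, Ndufb10 and Ndufs7), where 26.1% of all genes were called, 12.8% higher and 13.3% lower. The falls were 0.82 ± 0.21 for Cox4i2 (adjusted p = 0.0116) and 0.50 ± 0.13 for Cox8b (adjusted p = 0.0126). Uqcrc2, a core protein of complex III, rose by 0.40 ± 0.11 (adjusted p = 0.021). Without vehicle rat 1, 35 genes were called on the deposited scale, all of them higher, where 26.6% of all genes were called and 24.5% were called higher, and all 7 genes of complex III were among them. After quantile normalization without this rat the count was 9, where 32.9% of all genes were called. Without vehicle rat 2 the deposited count was 1, with 612 calls over all genes against 796 with all rats. Without E2+3-MC rat 1 or 3 the count after quantile normalization was 3 and 4, with 1842 and 1932 calls over all genes against 2647. The calls of Cox4i2 and Ndufaf3 after quantile normalization held with any 1 of the 6 rats left out. Those of Atp5mc1, Ndufa1 and Cox7c were each lost in 4 of these 6 cases, those of Ndufs5 and Ndufs7 in 3, and that of Ndufb10 in 2. Cox8b was lost without vehicle rat 3 (-0.41, adjusted p = 0.051) or E2+3-MC rat 1 (-0.40, adjusted p = 0.0652), and Uqcrc2 without vehicle rat 3 (0.31, adjusted p = 0.0799) or E2+3-MC rat 2 (0.29, adjusted p = 0.075).

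Adding 3-MC to E2 left 0 of the 79 genes called in limma on either scale, where 0% of all genes were called on the deposited scale and 0.0197% after quantile normalization. At an unadjusted p under 0.05 the counts of the 79 genes were 0 and 1 (1.27%), against 9.23% and 13% of all genes. The median difference between E2+3-MC and E2 was -0.04 on the deposited scale, against 0.15 for all genes, and -0.10 after quantile normalization, against -0.01. Genes above the upper quartile of level had a median of 0.05 on the deposited scale. The deposited median of the 79 genes ran from -0.13 without E2+3-MC rat 3 to 0.07 without E2+3-MC rat 2. Those of all genes were then 0.12 and 0.19. Leaving out 1 rat thus turned its sign, but it lay below the median of all genes in both cases. Ndufa1 differed by -0.19 ± 0.22 and Atp5mc1 by -0.04 ± 0.18 on the deposited scale. The highest difference by value was that of Cox6b2 (0.53 ± 0.26, adjusted p = 0.557), with intensities of 142, 106 and 145 with E2 and 221, 151 and 218 with both. The interaction, which asks whether 3-MC acts differently with and without E2, had 0 calls among the 79 genes and 0% among all genes on both scales, and 0 of the 79 had an unadjusted p under 0.05 on either scale, against 2.93% and 5.6% of all genes. Its median was 0.20 on the deposited scale, against 0.19 for all genes, and 0.01 after quantile normalization. The deposited median was -0.11 without vehicle rat 1 and 0.39 without vehicle rat 2, so its sign rests on vehicle rat 1. Those of all genes were then -0.003 and 0.25.

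E2+3-MC against 3-MC shows the estradiol difference in rats that all had the AhR ligand. The vehicle group does not enter this difference, but it enters the spread that all groups share in the fit. On the deposited scale the median SD of the 80 genes between rats was 0.555 with vehicle, 0.18 with 3-MC and 0.24 with both. Leaving out a vehicle rat was not run for this comparison. Only Cox7b, an X-linked subunit of complex IV, rose on the deposited scale, where 8.21% of all genes were called and 6.82% were called higher, and 24 of the 79 genes (30.4%) had an unadjusted p under 0.05, against 20% of all genes. Cox7b (chrX:75149036-75155285) had intensities of 1039, 1079 and 1454 with 3-MC and 2154, 1589 and 2226 with E2+3-MC, and of 1493, 1166 and 1548 with vehicle and 2092, 1953 and 2120 with E2. In both pairs the E2-treated rats were higher without overlap on the deposited scale. After quantile normalization this held for the pair with 3-MC only. The log2 level of vehicle rat 3, 10.96, then lay above those of the E2 rats, 10.73 to 10.93. The difference between E2+3-MC and 3-MC was 0.73 ± 0.20 (limma adjusted p = 0.031) on the deposited scale and 0.33 ± 0.19 (adjusted p = 0.229) after quantile normalization, so this call rests on the scale of the arrays. It was also lost on the deposited scale without 3-MC rat 1 (0.65, adjusted p = 0.155) or 2 (0.67, adjusted p = 0.153) and without E2+3-MC rat 1 (0.67, adjusted p = 0.149) or 3 (0.65, adjusted p = 0.171). The deposited count was 3 without 3-MC rat 3, 4 without E2+3-MC rat 2, and 0 without any other of the 6 rats. The calls over all genes were 617 and 889 in the first 2 of these cases and 413 to 495 in the others, against 834 with all rats.

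In the same comparison 75 of the 79 differences were above 0 on the deposited scale. The median of the 79 was 0.41, against 0.08 for all genes and 0.27 for genes above the upper quartile of level. The 36 genes whose E2+3-MC rats were all above the 3-MC rats compare with 25.7% of all genes, and 2 genes lay all below, against 11.6%. After quantile normalization 23 genes were all above, against 21.9% of all genes, 6 were all below, against 25.1%, and the median was 0.08 against -0.03. The 7 calls after quantile normalization, where 26.1% of all genes were called (13.6% higher and 12.4% lower), were rises of Ndufs5, Uqcrq, Uqcrc2 and Cox5a and falls of Cox4i2, Cox8b and Ndufaf3. Of these, Ndufs5 rose by 0.43 ± 0.12 (adjusted p = 0.0181) and Ndufaf3 fell by 0.31 ± 0.10 (adjusted p = 0.0369). Without 3-MC rat 1 or 2 or E2+3-MC rat 1 or 3, 1 call was left, while the calls over all genes were 1837 to 1882 against 2646 with all rats. Ndufs5 was lost without 3-MC rat 1, E2+3-MC rat 1 or E2+3-MC rat 3, at adjusted p-values of 0.0902, 0.0533 and 0.0812. Ndufaf3 was lost without any 1 of the 6 rats but 3-MC rat 1, at adjusted p-values of 0.0658 to 0.144. The comparisons with vehicle and with 3-MC share the E2+3-MC rats. With the spread estimated from these 2 groups alone, 33 of the 79 genes were called on the deposited scale, where 22.2% of all genes were called.

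**Figure D3:**
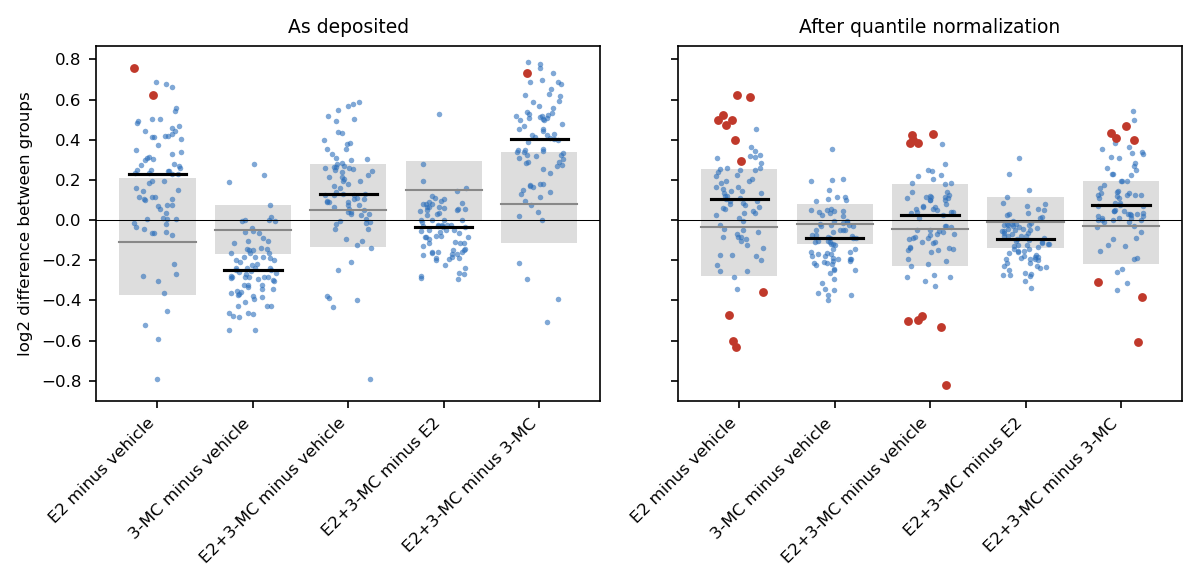
Log2 differences of the 79 tested genes in 5 comparisons, on the deposited scale (left) and after quantile normalization (right). Small points are genes that were not called, large red points are called genes, black lines are the medians of the 79 genes, and grey bands and lines are the quartiles and median of all 10154 genes; the medians with E2 against vehicle are 0.23 on the left and 0.10 on the right.

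Cell type markers also differed between the groups. The calls given here are for E2 against vehicle. In that comparison 8.7% of all genes were called higher and 9.44% lower on the deposited scale, and 19% and 19.4% after quantile normalization. The summed intensity of 10 smooth muscle markers was 22884 to 39880 with vehicle, 34279 to 38519 with E2, 22768 to 26414 with 3-MC and 29935 to 40934 with both. Its members went both ways between E2 and vehicle, with 2 called higher and 1 lower of 10 on the deposited scale (median 0.11) and 3 higher and 3 lower after quantile normalization. That of 10 epithelial markers was 3629 to 7730 with vehicle, 13918 to 16425 with E2, 3362 to 4450 with 3-MC and 7188 to 14448 with both. Of the epithelial markers 6 of 10 rose with E2 on the deposited scale and none fell, and of 10 endothelial markers 8 fell and none rose. After quantile normalization 8 epithelial markers rose and 1 fell, and 9 endothelial markers fell and none rose. Of 10 adipocyte markers tested, 7 fell and none rose on the deposited scale (median -1.62), and 5 fell after quantile normalization. Their summed intensity was 3631 to 23642 with vehicle and 3309 to 3735 with E2, with 1493 to 9137 for 3-MC and 4996 to 11920 for both. The adipocyte marker Adipoq did not follow the fall, with 2342, 336 and 387 with vehicle and 2109, 1908 and 1798 with E2. Of 11 macrophage markers tested, 4 rose and none fell on the deposited scale and 6 rose after quantile normalization, with sums of 2458 to 7802 with vehicle, 5947 to 8218 with E2, 2574 to 4720 with 3-MC and 6595 to 7850 with both. Summed intensities of the 10 endothelial markers were 3110 to 5650 with vehicle and 2016 to 2211 with E2. Those of 4 blood markers were 4231 to 8733 and 850 to 2564, with Slc4a1 below the dim limit, and all 3 tested blood markers fell on both scales. Those of 9 stromal markers were 8193 to 18513 with vehicle and 9546 to 14037 with E2, and 1 rose and 1 fell on the deposited scale (1 and 4 after quantile normalization). The part of changes in cell makeup in the differences above was not tested.

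Other genes of mitochondrial energy metabolism were counted in lists for the same E2 minus vehicle comparison. Of 17 electron carriers and partner subunits 3 rose and 1 fell on the deposited scale, and 4 rose and 2 fell after quantile normalization. The rises were in Gpd2 (0.94 ± 0.23, limma adjusted p = 0.008), the mitochondrial glycerol phosphate dehydrogenase, Sqor (0.78 ± 0.21), which oxidises sulfide, and Cycs (0.73 ± 0.21), cytochrome c. The fall was in Coq8a (-0.90 ± 0.23), a kinase-like protein of ubiquinone synthesis. Of 26 further assembly factors 1 rose, Sco1 (0.67 ± 0.21, adjusted p = 0.0375), a copper carrier for complex IV, while 7 rose and 3 fell after quantile normalization. Of 15 carriers and porins 4 rose and none fell, and 5 rose after quantile normalization. The 4 were Ucp2 (1.01 ± 0.27), of the uncoupling protein family, Slc25a5 (0.94 ± 0.28), an ADP/ATP carrier, Slc25a24 (0.94 ± 0.30), an ATP-Mg and phosphate carrier, and the porin Vdac2 (0.67 ± 0.22).

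Of 24 regulators of mitochondrial gene expression 3 fell with E2 and none rose on the deposited scale, and 8 fell and 3 rose after quantile normalization. Ppargc1a, the coactivator known as an inducer of mitochondrial biogenesis, fell by 2.13 ± 0.22 (limma adjusted p = 2.22e-06) and fell by 1.93 ± 0.11 after quantile normalization. Ppargc1b, its relative, fell by 0.78 ± 0.17, and Mterf2, a mitochondrial transcription factor family member, by 0.63 ± 0.20. None of 68 mitochondrial ribosomal protein genes was called by limma on the deposited scale (3 at an unadjusted p under 0.05, median difference 0.05), and 9 rose and none fell after quantile normalization. Of 25 import and chaperone genes none was called by limma on the deposited scale (1 at an unadjusted p under 0.05), and 2 rose and 1 fell after quantile normalization.

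Of 19 glycolysis and lactate genes 7 rose and 2 fell on the deposited scale, and 11 rose and 3 fell after quantile normalization. The lactate exporter Slc16a3 rose by 2.54 ± 0.19 (limma adjusted p = 7.84e-08), the lactate dehydrogenase Ldha by 1.30 ± 0.29 and the glucose transporter Slc2a1 by 1.20 ± 0.25. The falls were in Aldoc (-1.25 ± 0.38) and Ldhb (-0.77 ± 0.26). Of 21 genes of the citric acid cycle and pyruvate dehydrogenase 2 fell and none rose on the deposited scale, and 5 fell and 3 rose after quantile normalization. The pyruvate dehydrogenase phosphatase gene Pdp2 fell by 0.94 ± 0.24 and the kinase gene Pdk4 fell by 0.92 ± 0.29 on the deposited scale. Of 14 fatty acid oxidation genes 2 fell on that scale, Acaa2 by 1.11 ± 0.24 and Eci1 by 1.04 ± 0.24, and 5 fell and 2 rose after quantile normalization. Of 11 mitochondrial antioxidant genes 2 rose and none fell on the deposited scale, and 2 rose and 2 fell after quantile normalization. On the deposited scale Gpx1 rose by 1.76 ± 0.31 and Sod2 rose by 1.65 ± 0.29, the manganese superoxide dismutase.

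**Figure D4:**
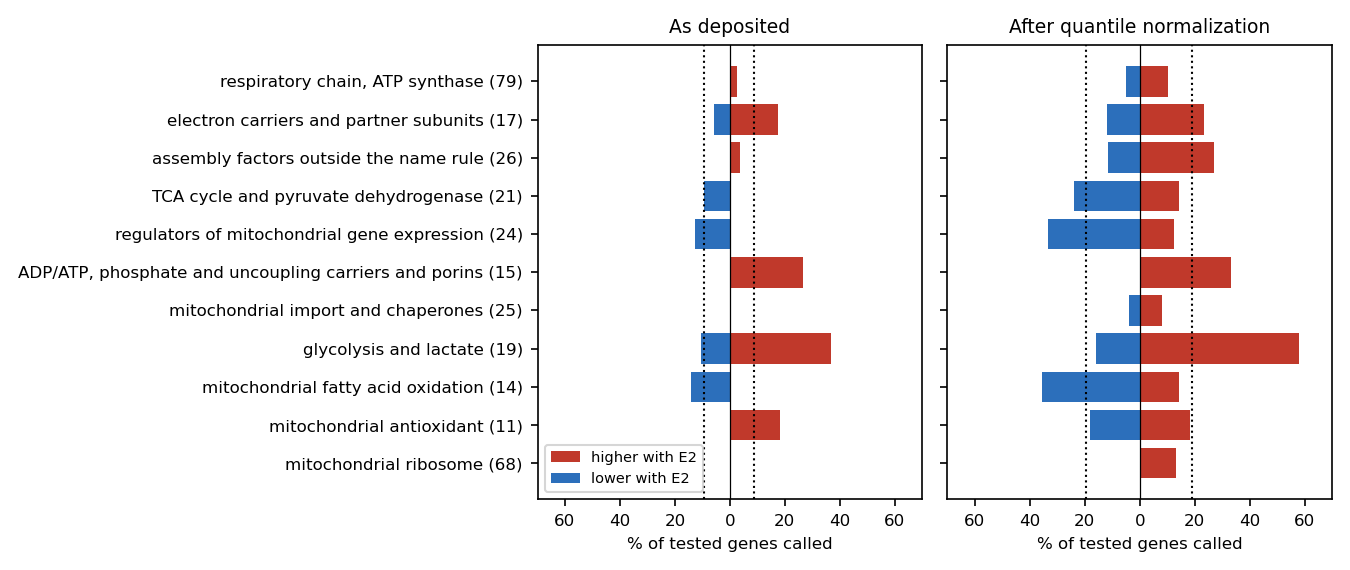
Share of the tested genes of each list (number tested in brackets) that were called higher (right, red) or lower (left, blue) with E2 than with vehicle, on the deposited scale (left panel) and after quantile normalization (right panel). Dotted lines mark the shares of all genes called in each direction, 8.7% and 9.44% on the deposited scale and 19% and 19.4% after quantile normalization; the 79 respiratory chain and ATP synthase genes stay inside the dotted lines in both panels.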

How the data were processed

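Biotinylated cRNA made from the total RNA of each uterus was put on an Affymetrix array of its own, per the labels' protocols. Deposited values are probe set intensities on a linear scale, which the authors made with Affymetrix Expression Console and PLIER, per the submitters' processing notes. Versions, settings and any normalization between arrays were not given in the sources used here. Precision is limited by the number of arrays.

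Of 29214 probe sets, 15310 have 1 gene symbol in the platform annotation, 323 several and 13581 none listed. The probe set with the highest mean stood for a gene. Intensities were taken as log2(intensity + 16), an offset that shrinks differences of dim genes, and the dimmest 30% of genes were left out. All 12 arrays entered 1 limma model (3.58.1, R 4.3.3) with a mean per group and 8 residual degrees of freedom. The fit was tested on simulated data. Calls are adjusted p under 0.05 (Benjamini-Hochberg over 10154 genes). Mean levels were used to rank genes as bright or dim, and levels of single genes are not otherwise compared with each other.

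The genes and the 20 gene lists were chosen with earlier results of these data known. Genes named with values are core subunits, subunit isoforms, the largest calls of each comparison on both scales, and, where nothing was called, the largest differences. The labels number the rats 1 to 3 in each group without saying that a number is shared. No 2 arrays held identical values. That the 3 rats of a group came from separate treatments or cages is not stated. Alternatives were quantile normalization, median centring, other offsets and filters, the mean of all probe sets, limma's trend and robust options, a rat number block, fits on 2 groups, and leaving out each rat.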

Additional observations from a re-analysis of the deposited data

How the results depend on the processing

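The number of respiratory chain genes called depended on the scaling of the arrays and on single rats. For E2 minus vehicle, 2 genes were called with the deposited scale, 12 after quantile normalization, 11 after median centring, 4 with an offset of 64, and 0 when the spread came from these groups alone. For E2+3-MC minus vehicle, 0 became 10, 1 and 1 under the first 3 of these settings, and 1 with no filter on dim genes. For E2+3-MC minus 3-MC, 1 became 7, 4 and 4, and was 3 with no filter, 0 with limma's trend and robust options, and 33 with the spread from these groups alone. Over all 10154 genes these comparisons had 1842, 796 and 834 calls on the deposited scale, 3900, 2647 and 2646 after quantile normalization, and 962, 291 and 2253 with the spread from 2 groups alone. They had 2336, 1069 and 1156 after median centring, and 1622, 701 and 727 with an offset of 64. Counts over all genes with no filter and with the trend and robust options are not given here. The cause of these changes was not tested. With 1 rat left out the counts ran from 0 to 45 for E2 minus vehicle (7 to 18 after quantile normalization), from 0 to 35 for E2+3-MC minus vehicle (3 to 11), and from 0 to 4 for E2+3-MC minus 3-MC (1 to 7). The counts for 3-MC minus vehicle, E2+3-MC minus E2 and the interaction were 0 under all alternatives run. No called value changed sign.

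The labels do not say that a rat number is shared, and in no comparison made here were all 3 same-number correlations of deviations over 0.1. Between the E2 and 3-MC groups, which were not compared here, all 3 were over 0.1. They were 0.239, 0.159 and 0.170 on the deposited scale, and 0.232, 0.102 and 0.116 after quantile normalization. Over all 4 groups same-number correlations ran from -0.27 to 0.24 on the deposited scale, and 8 of 18 were over 0.1, against 9 of 36 for other pairs. Among the 3 groups without vehicle, however, all 9 were above 0, and 9 of 9 rats correlated best with their own number (8 of 9 on both counts after quantile normalization), which is a hint from the data and not the design. With rat number as a replicate block the counts were 9, 2 and 5 for the 3 comparisons with E2 above. Of all genes 25.1%, 10.7% and 11.2% were then called. With the block after quantile normalization the counts were 11, 10 and 7, and the shares over all genes are not given here. The call of Ndufa1 held in 18 of 23 alternatives, that of Atp5mc1 in 17 of 23, and that of Cox7b in 10 of 23.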
